A study of Homo sapiens with 4 samples.

Results

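TRMT13 encodes a tRNA methyltransferase (the protein is called hTrmt13 in the study), and its transcript was the siRNA target. The genes described here are TRMT13, its neighbours on the chromosome SASS6 and LRRC39, and 7 other RNA 2'-O-ribose methyltransferase genes, FTSJ1, FTSJ2 (now MRM2), FTSJ3, MRM1, RNMTL1 (now MRM3), TARBP1 and TRMT44. They were chosen by gene symbol, all 10 were found among the 28930 symbols of the counts table, and all 10 passed the filter on low counts that left 13022 genes. The samples were 4 RNA-seq libraries from MDA-MB-231, an established human line of triple-negative breast cancer, with no other genotype or agent in the labels. Replicates 1 and 2 of the control received a control siRNA, and replicates 1 and 2 of the knockdown received an siRNA against hTrmt13. For the siRNAs, the sequence, the dose and the time from transfection to harvest are not given in the labels.

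Ribose 2'-O methylation places a methyl group on the sugar of an RNA nucleotide rather than on its base. In tRNA it is laid down by stand-alone proteins that each serve a few positions. hTrmt13 acts in the acceptor stem, TARBP1 in the D-loop, TRMT44 near the variable loop and FTSJ1 in the anticodon loop, the last with the partner proteins THADA and WDR6. In cytosolic ribosomal RNA the same modification is made mainly by fibrillarin guided by box C/D small nucleolar RNAs, while MRM1, MRM2 and MRM3 modify the large ribosomal RNA of mitochondria and FTSJ3 is a nucleolar protein of ribosome assembly.

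The TRMT13 gene shares its start region with SASS6, which encodes a core protein of the centriole cartwheel and is transcribed in the opposite direction. In RefSeq 232 bases lie between the 2 start sites. The 250 bases before the TRMT13 start are shown because they hold the SASS6 start and end at that of TRMT13. Their first 18 bases belong to SASS6. The window before LRRC39 is shown as that of the neighbour on the other side, and the window before MRM1 because that gene had the highest log2 fold change of the 10. All 3 windows are RefSeq sequence of GRCh38.p14, a build other than the hg19 and GRCh37 named for the counts. They lie at chr1:100132913-100133162 on the plus strand (TRMT13), chr1:100178257-100178506 on the minus strand (LRRC39) and chr17:36601333-36601582 on the plus strand (MRM1). Each is written 5′ to 3′ on the strand of its gene, with capitals marking matches on either strand to the motifs CCGGAA (ETS family), GGGCGG (SP/KLF family), CACGTG (E-box), TGACGTCA (CRE), CCAAT (NFY) and AAGATGGCG (YY1).
TRMT13: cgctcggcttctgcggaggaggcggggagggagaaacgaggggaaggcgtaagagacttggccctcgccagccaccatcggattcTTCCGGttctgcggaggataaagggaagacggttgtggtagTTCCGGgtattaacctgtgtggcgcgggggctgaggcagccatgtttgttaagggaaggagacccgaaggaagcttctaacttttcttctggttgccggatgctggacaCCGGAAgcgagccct
LRRC39: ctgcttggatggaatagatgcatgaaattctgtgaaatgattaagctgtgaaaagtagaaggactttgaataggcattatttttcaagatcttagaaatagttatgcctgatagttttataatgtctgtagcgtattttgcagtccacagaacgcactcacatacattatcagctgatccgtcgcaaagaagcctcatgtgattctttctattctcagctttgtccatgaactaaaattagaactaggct
MRM1: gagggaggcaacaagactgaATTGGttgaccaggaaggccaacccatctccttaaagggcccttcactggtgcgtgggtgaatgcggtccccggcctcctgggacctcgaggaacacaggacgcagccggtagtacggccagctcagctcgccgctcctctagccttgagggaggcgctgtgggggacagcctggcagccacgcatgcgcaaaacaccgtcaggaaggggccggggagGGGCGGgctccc

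The TRMT13 window held 3 matches to CCGGAA and none to the other 5 motifs, and the SASS6 window, which covers most of the same bases on the other strand, held 3 as well. Of 35093 RefSeq windows of the same length, 14.5% held at least 1 match to CCGGAA and 0.627% held 3 or more. As the motifs were chosen after the sequences were seen, such shares describe the matches and do not test them. The LRRC39 window had a GC content of 36.4% and no match to any of the 6 motifs, against 59.2% GC in the TRMT13 window. The MRM1 window, at 65.6% GC, held 1 match to GGGCGG, found in 42.6% of all windows, and 1 to CCAAT, found in 32.0%. Among the 10 genes, CCGGAA was found in 4 windows (TRMT13, SASS6, FTSJ2 and TRMT44), GGGCGG in 4, CCAAT in 2, TGACGTCA in 2 (RNMTL1 and TRMT44), and CACGTG and AAGATGGCG in 0. Of all windows, 1.65% held TGACGTCA, 6.34% held CACGTG and 0.653% held AAGATGGCG. A match describes letters in these windows and does not show that a factor binds there.

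The libraries held 9777267 to 13098985 counts, so before TMM scaling 1 CPM (the count scaled to an equal library total, in the usual unit) rests on about 9.78 to 13.1 counts. The CPM values given here were also scaled by TMM factors, which ran from 0.981 to 1.02. Within each group the replicates differed by much more than sampling noise, with a chi-square per degree of freedom of 40.4 in control and 44.5 in knockdown, so no library was merged with another. No label says that replicates came from separate cultures, so p-values measure only how these samples vary, and that variation may be technical. The cell line's markers VIM, CD44, AXL and LGALS1 were present at 156 to 1845 CPM in every library, ESR1 and PGR had no count, and CDH1 had 1 count in each group. The line's markers did not move together. VIM overlapped between the groups. LGALS1 was higher in both knockdown libraries, as were 27.5% of all genes tested. It stood at 985.6 and 924.1 CPM under control siRNA and 1294 and 1031 CPM in knockdown (edgeR adjusted p = 0.458). CD44 and AXL were lower in both knockdown libraries, as were 26.8% of all genes tested. CD44 stood at 272.7 and 273.0 CPM under control siRNA and 155.7 and 160.3 CPM in knockdown (edgeR adjusted p = 0.0790). AXL stood at 899.7 and 1097 CPM, then at 584.8 and 625.1 CPM (edgeR adjusted p = 0.107). Over 3 blood cell markers the summed level was 0.209 and 0.541 CPM under control siRNA and 0.666 and 0.899 CPM in knockdown, with CD3E at 0. Over the 3 fibroblast markers it was 45.9 and 33.0 CPM against 37.6 and 19.6 CPM, with DCN at 0, and the endothelial marker KDR stood at 5.74 and 3.02 CPM against 2.66 and 0.82 CPM. The 7 luminal markers summed to 346.9 and 308.0 CPM under control siRNA and 310.1 and 300.5 CPM in knockdown. KRT19 alone stood at 281.9 to 324.1 CPM. Of the 4 tested, 3 (EPCAM, GATA3 and FOXA1) were lower in both knockdown libraries, as were 26.8% of all genes tested. None of these markers passed the test, and their part in the results below was not tested. A gene was called changed where edgeR's quasi-likelihood test gave it a p, adjusted by Benjamini-Hochberg over all genes, under 0.05. This held for 389 genes, 2.99% of those tested. That count was 703 without control replicate 1, 749 without control replicate 2 and 767 without knockdown replicate 2.

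TRMT13 was the 1 gene of the 10 that changed, and it fell, as did 1.96% of all genes tested. Its counts were 143 and 244 under control siRNA and 37 and 64 in knockdown. Scaled by library size and TMM factors, this was 14.9 and 18.9 CPM under control siRNA and 3.52 and 4.79 CPM in knockdown. Both knockdown libraries lay far below both control libraries, so each library went with its label. The log2 fold change was −2.02 (SE 0.34, 95% interval −2.82 to −1.21, edgeR adjusted p = 0.0399), which left 24.6% of the control level. Intervals here are for single genes, not adjusted for the number of genes tested. In RNA from bulk cells, a lower level in every cell and fewer cells with the transcript cannot be told apart. Counting error alone gives the 4.06-fold ratio of summed counts a 95% exact binomial interval of 3.26 to 5.11. The siRNA target was thus reduced beyond the replicate spread, yet other transcripts were reduced more. Of the 13022 genes tested, 254 had a lower log2 fold change than TRMT13 and 200 had a smaller p.

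**Figure D1:**
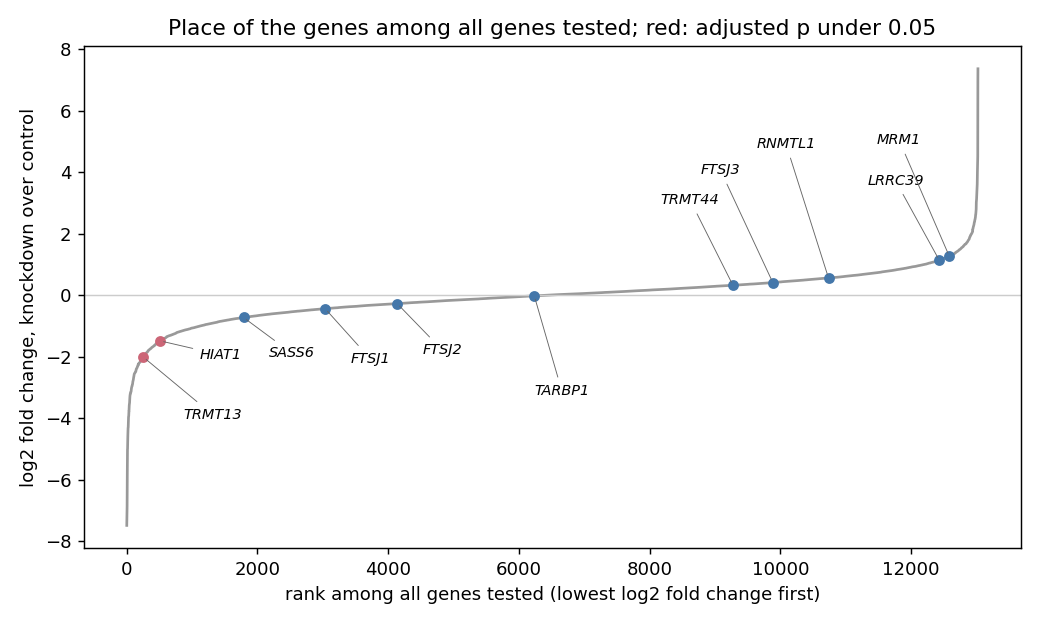
All 13022 tested genes ordered by log2 fold change of knockdown over control (y axis, grey line) against their rank (x axis), with the 10 genes and the neighbour HIAT1 as points, red where the adjusted p was under 0.05 and blue otherwise. TRMT13 lies on the lower shoulder of the curve, with 254 genes below it, and TARBP1 lies near 0.

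Among 10693 other genes, all with a mean level of 5 CPM or more and not known by a clone name alone, the 3 whose centred log2 profile over the 4 libraries was most like that of TRMT13 were TP53INP1, FBLIM1 and IGDCC4. Their root mean square differences from the TRMT13 profile were 0.042, 0.072 and 0.090 on the log2 scale. IGDCC4, for example, stood at 16.2 and 17.8 CPM under control siRNA and 3.90 and 5.17 CPM in knockdown. With 4 libraries, such a profile has few points to be matched on.

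SASS6, whose start lies beside that of TRMT13, did not pass the test in the main fit, which had no replicate term. With that term SASS6 was called, as were 40.1% of all genes. It stood at 18.4 and 28.7 CPM under control siRNA and at 8.27 and 20.1 CPM in knockdown. The groups overlapped, since knockdown replicate 2 was above control replicate 1, and the 2 knockdown libraries differed 2.43-fold from each other. Within each replicate number, the knockdown library was the lower one. The log2 fold change was −0.73 with a 95% interval from −1.82 to 0.36 (edgeR adjusted p = 0.38), an interval that holds both a large fall and a small rise. Without knockdown replicate 1 the log2 fold change was −0.23, and without knockdown replicate 2 it was −1.51 (edgeR adjusted p = 0.0720).

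The ratio of TRMT13 to SASS6 counts within a library needs no scaling between libraries. It was 0.813 and 0.658 in control and 0.425 and 0.239 in knockdown, so TRMT13 was lower relative to SASS6 in both knockdown libraries. The difference of the mean log2 ratios was −1.20, and the two-sided exact permutation test gave p = 0.333, the smallest that 2 against 2 libraries allow.

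LRRC39 encodes a leucine-rich repeat protein known from the sarcomere of striated muscle, and it lies tail to tail with TRMT13. In GENCODE release 29 the exons of the 2 genes overlap by 543 bases on opposite strands, 27.3% of the exon length of LRRC39 and 15.8% of that of TRMT13. No source used here gives the strand setting of the counting, so reads from the shared stretch cannot be told apart by gene. LRRC39 had 22 and 10 counts in control and 35 and 43 in knockdown, or 2.30 and 0.77 CPM against 3.33 and 3.22 CPM. Both knockdown libraries were above both control libraries, as was so for 27.5% of the genes tested. The log2 fold change was 1.13 (95% interval −0.20 to 2.45, edgeR adjusted p = 0.272) and did not exceed the spread between replicates. The control libraries differed 2.97-fold from each other, and the value was 2.07 without control replicate 1 and 0.51 without control replicate 2. In knockdown replicate 1 LRRC39 reached 0.946 counts for each TRMT13 count, against 0.154 in control replicate 1. In replicate 2 the ratio was 0.672 in knockdown and 0.0410 in control. TRMT13, by which this ratio divides, itself fell in knockdown.

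**Figure D2:**
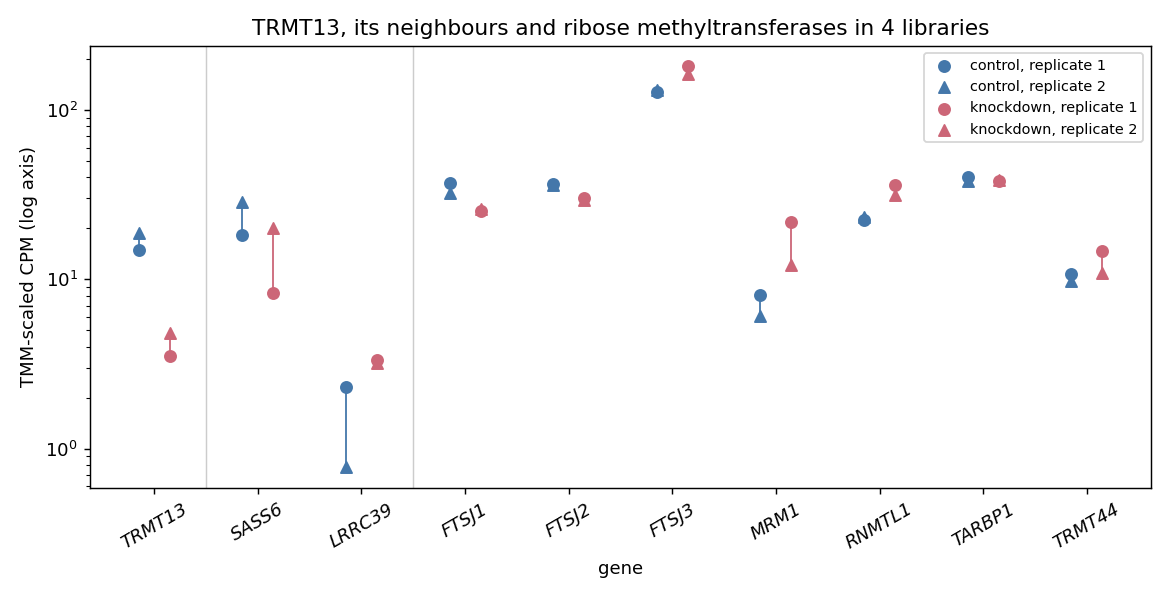
TMM-scaled CPM (log axis) of the 10 genes in control (blue) and knockdown (red) libraries, circles for replicate 1 and triangles for replicate 2, joined within a group. TRMT13 is lower in both knockdown libraries, at 3.52 and 4.79 CPM, MRM1 is higher in both, at 21.7 and 12.1 CPM, and the 4 values of TARBP1 lie together between 38.1 and 40.2 CPM.

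In a wider stretch of the chromosome from PALMD to CDC14A, 7 listed genes were examined beyond TRMT13, SASS6 and LRRC39, and 6 of them were tested. Of these, 1 fell and 0 rose, where 2.99% of all genes tested were called and 1.96% fell, with a median log2 fold change of 0.05 against 0.01 for all genes tested. At an unadjusted p under 0.05, which 24.0% of all genes tested passed, the count was 1. DESeq2, which called 8.67% of all genes, and limma-voom, which called 2.50%, also called 1. The gene not tested, PALMD, had at most 2 counts in any library.

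The gene that fell was HIAT1 (now MFSD14A), a membrane protein of the major facilitator family, which lies on the far side of SASS6. Its 3' end points at that of SASS6 with a gap of 185 bases, and its exons overlap neither gene. HIAT1 stood at 126.6 and 159.3 CPM under control siRNA and at 42.9 and 58.9 CPM in knockdown, on 451 to 2060 counts per library. Both knockdown libraries were far below both control libraries. The log2 fold change was −1.49 (SE 0.26, 95% interval −2.11 to −0.87, edgeR adjusted p = 0.0416), a 2.81-fold fall. Of all genes tested, 511 had a lower log2 fold change than HIAT1 and 244 a smaller p.

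The ratio between TRMT13 and HIAT1, looked at after both had been seen to fall, was nearly the same in replicates. The TRMT13 counts were 0.118 and 0.118 of the HIAT1 counts under control siRNA and 0.0820 and 0.0813 of them in knockdown. The ratio was lower in knockdown by 0.53 on the log2 scale (two-sided exact permutation test, p = 0.333, the smallest possible). Against SASS6, which lies between them, replicates differed more, with HIAT1 at 6.89 and 5.55 times the SASS6 counts in control and 5.18 and 2.94 times in knockdown.

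The other listed genes of the stretch gave no call in the main fit, which had no replicate term. With that term DBT was called, as were 40.1% of all genes. On the far side of HIAT1, SLC35A3, a Golgi nucleotide sugar transporter, stood at a log2 fold change of −0.02 (95% interval −0.81 to 0.76). Beyond LRRC39, DBT, a subunit of the branched-chain ketoacid dehydrogenase, stood at 0.43 (95% interval −0.18 to 1.04) and RTCA, an RNA 3'-phosphate cyclase, at 0.13 (95% interval −0.49 to 0.74). CDC14A, a phosphatase, stood at −0.42 and FRRS1 at 0.29. The signs of SLC35A3, RTCA and FRRS1 turned when 1 library was left out.

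**Figure D3:**
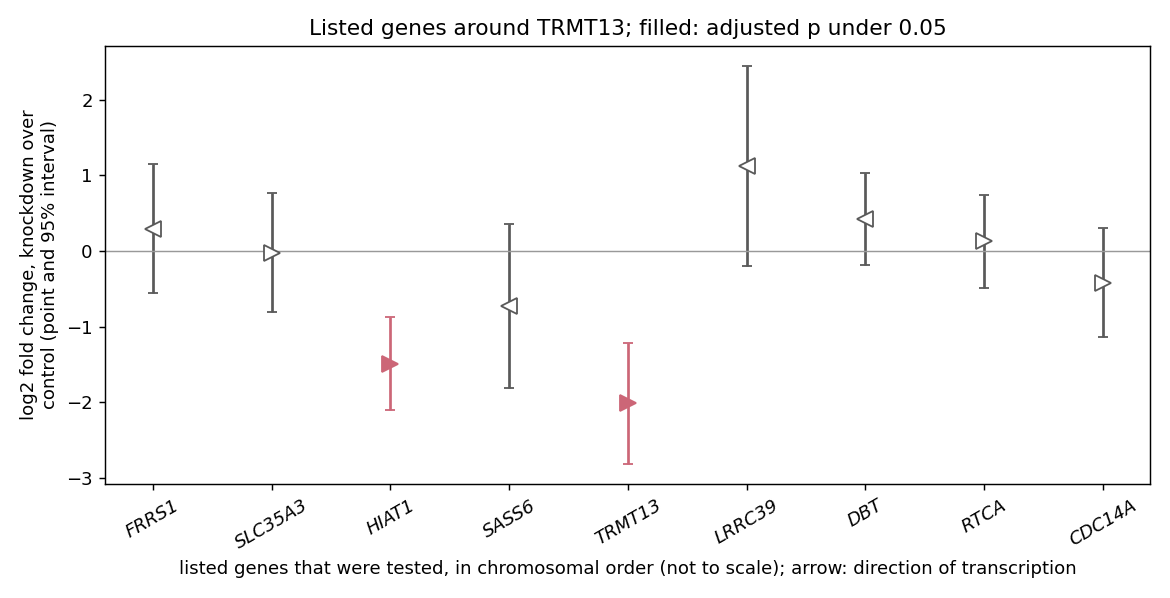
Log2 fold change of knockdown over control (y axis) with its 95% interval for 9 listed and tested genes around TRMT13 in chromosomal order, arrows pointing in the direction of transcription and filled where the adjusted p was under 0.05. HIAT1 at −1.49 and TRMT13 at −2.02 stand below 0 with SASS6 between them at −0.73, and the intervals of the other 7 genes include 0.

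The 7 other ribose methyltransferases gave 0 calls in edgeR, DESeq2 and limma-voom, which called 2.99%, 8.67% and 2.50% of all genes tested. At an unadjusted p under 0.05 there was 1, MRM1, while 24.0% of all genes tested passed that mark. Their log2 fold changes ran from −0.44 to 1.27, with 4 positive and 3 negative and a median of 0.32, against 0.01 for all genes tested. For 6 of the 7 the values of the groups did not overlap, as for 54.3% of all genes tested.

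Among the mitochondrial enzymes, MRM1, which methylates a site of the large mitochondrial ribosomal RNA, stood highest in fold change. It had 77 and 78 counts in control and 228 and 162 in knockdown, which is 8.04 and 6.03 CPM against 21.7 and 12.1 CPM. The groups did not overlap, but the 2 knockdown libraries differed 1.79-fold. The log2 fold change was 1.27 (95% interval 0.35 to 2.18, unadjusted p = 0.0138, edgeR adjusted p = 0.116), with 439 genes higher. It passed the threshold without knockdown replicate 2 (1.63, edgeR adjusted p = 0.0467, with 5.89% of all genes called) and with no filter on low counts (1.27, edgeR adjusted p = 0.00949, with 10.5% called), and stood at 0.79 (edgeR adjusted p = 0.376) without knockdown replicate 1.

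RNMTL1, the MRM3 enzyme of another site in the same ribosomal RNA, stood at 22.4 and 23.3 CPM under control siRNA and 35.8 and 31.4 CPM in knockdown. Its replicates were close in both groups and the groups did not overlap, with a log2 fold change of 0.56 (95% interval −0.02 to 1.13, edgeR adjusted p = 0.222). FTSJ2, the MRM2 enzyme of a further such site, stood at 36.4 and 35.9 CPM under control siRNA and 30.2 and 29.4 CPM in knockdown. Its log2 fold change was −0.28 (95% interval −0.82 to 0.27, edgeR adjusted p = 0.508). None of the 3 mitochondrial enzymes passed edgeR's threshold in the main fit, which had no replicate term. MRM1 and RNMTL1 passed it with that term, where 40.1% of all genes did.

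FTSJ3, the nucleolar protein of ribosome assembly, had the highest level per length of the 10, given further on. It stood at 128.3 and 131.7 CPM under control siRNA and 181.8 and 162.8 CPM in knockdown. The groups did not overlap, and the log2 fold change was 0.41 (95% interval −0.08 to 0.89, edgeR adjusted p = 0.279). Of the 5 box C/D proteins around fibrillarin, 4 were tested and 0 changed in edgeR, DESeq2 or limma-voom. Those tools called 2.99%, 8.67% and 2.50% of all genes. At an unadjusted p under 0.05 there were 0 of the 4, against 24.0% of all genes tested. The log2 fold changes of the 4 lay between 0.13 (NHP2L1, now SNU13) and 0.22 (FBL, fibrillarin). FBLL1 had 5 counts in all.

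Among the tRNA enzymes, FTSJ1 stood at 37.3 and 32.2 CPM under control siRNA and 25.3 and 25.8 CPM in knockdown. Both knockdown libraries were lower, as for 26.8% of all genes tested, and the log2 fold change was −0.44 (95% interval −1.01 to 0.13, edgeR adjusted p = 0.317). Its 2 partners, THADA and WDR6, were not called by edgeR, DESeq2 or limma-voom, which called 2.99%, 8.67% and 2.50% of all genes, with 1 at an unadjusted p under 0.05, which 24.0% of all genes passed. That was THADA, at 43.5 and 48.6 CPM under control siRNA and 71.2 and 73.9 CPM in knockdown, a log2 fold change of 0.66 (95% interval 0.13 to 1.18, edgeR adjusted p = 0.141). With a replicate term in edgeR, THADA was called, as were 40.1% of all genes. WDR6 stood at −0.04, with 524.4 and 381.1 CPM under control siRNA and 519.8 and 359.8 CPM in knockdown, a pattern that went with the replicate number and not with the siRNA.

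TARBP1 was the steadiest of the 10. Its 4 values lay at 40.2 and 38.1 CPM under control siRNA and 38.2 and 38.7 CPM in knockdown, with a log2 fold change of −0.03 (95% interval −0.56 to 0.51, edgeR adjusted p = 0.962). TRMT44 stood at 10.8 and 9.82 CPM under control siRNA and 14.7 and 10.9 CPM in knockdown, a log2 fold change of 0.32 (95% interval −0.41 to 1.05, edgeR adjusted p = 0.574). The intervals of both genes leave out a log2 fold change as low as the −2.02 of TRMT13, as did those of all 9 genes other than TRMT13.

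**Figure D4:**
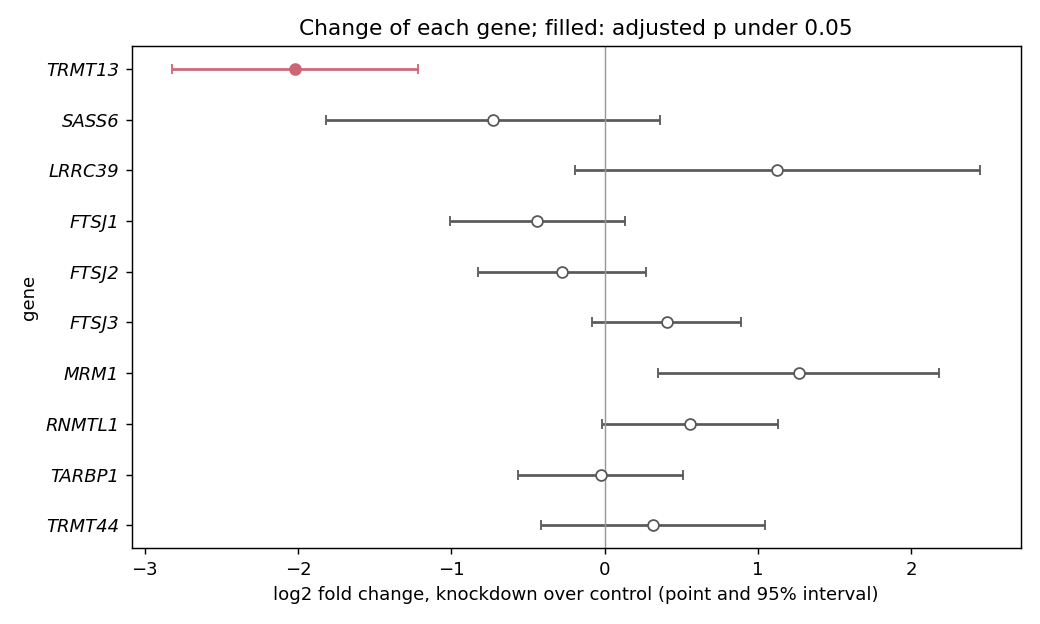
Log2 fold change of knockdown over control (x axis) with its 95% interval for each of the 10 genes, filled where the adjusted p was under 0.05. The interval of TRMT13 runs from −2.82 to −1.21, the interval of MRM1 from 0.35 to 2.18, and those of the other 8 genes include 0.

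A further pair of groups of RNA methyltransferases was read from the same fit. Of 26 tRNA base methyltransferases and their subunits, all tested, 0 changed in edgeR, DESeq2 or limma-voom. These 3 tools called 2.99%, 8.67% and 2.50% of all genes. At an unadjusted p under 0.05 there were 4 of the 26, against 24.0% of all genes tested. The log2 fold changes of the 26 ran from −1.12 to 1.30 with a median of 0.12, and 18 were positive and 8 negative. The smallest p-values were those of TRMT61B, a mitochondrial adenosine methyltransferase (0.82, edgeR adjusted p = 0.126), and TRMT12, an enzyme of wybutosine synthesis (1.30, edgeR adjusted p = 0.169). TRMT12 rests on 11 and 32 counts in control and 56 and 51 in knockdown, and its control libraries differed 2.16-fold. Of 3 cap and small RNA 2'-O methyltransferases, 2 were tested and 0 changed in any of the 3 tools, with 0 at an unadjusted p under 0.05. These were CMTR1 at −0.28 and CMTR2 at 0.32, while HENMT1, an enzyme of small RNA 3' ends, had 1 count in the 4 libraries.

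Levels can be set side by side only per length, here as CPM per kilobase of the union of exons in GENCODE release 29. In control, FTSJ3 was highest at 36.5 CPM per kilobase, followed by FTSJ2 at 21.6, FTSJ1 at 15.8, RNMTL1 at 12.6, TARBP1 at 7.63, SASS6 at 6.07, TRMT13 at 4.91, MRM1 at 3.79, TRMT44 at 3.23 and LRRC39 at 0.77. The ranges of the 2 control libraries overlapped between SASS6 and TRMT13 and between MRM1 and TRMT44, so those neighbours in the order did not differ beyond their spread. TRMT13 was thus one of the lower genes before the knockdown, in place 7 of 10. In knockdown it was in place 10 at 1.21 CPM per kilobase, below LRRC39 at 1.64, and MRM1 had moved from place 8 to place 5 at 9.10, where its range overlapped those of FTSJ1 and TARBP1. HIAT1, at 51.5 CPM per kilobase in control and 18.3 in knockdown, was above all 10 genes in control.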

How the data were processed

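RNA-seq libraries from MDA-MB-231 cells, 2 per group, were read from the deposited table of raw counts per gene symbol, made by the authors and not normalized. Per the submitters' processing notes, the builds were hg19 and GRCh37 and the tools included HTSeq 0.6.1, STAR 2.5.2b, limma and cutadapt, with no role stated. No source used here gives the annotation, strand setting or filters. The sample descriptions gave the groups.

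Testing used edgeR 4.0.16 (R 4.3.3), TMM normalization, filterByExpr (minimum count 10, minimum total 15) and the quasi-likelihood test without a covariate, with p-values adjusted by Benjamini-Hochberg over all 13022 genes. SE was taken as the log2 fold change over the root of F, and 95% intervals from the t distribution with the fit's degrees of freedom. Count ratios carry 95% exact binomial intervals, which cover counting error only. The test was run on simulated counts drawn independently for each library. That check does not cover effects shared by equal replicate numbers. DESeq2 1.42.0, limma-voom (limma 3.58.1), other scalings and filters, a replicate term and leaving out each library were alternatives. Exon lengths came from GENCODE release 29 and promoter windows from RefSeq (GRCh38.p14), where 10 of 10 genes matched.

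The members and lists were chosen with earlier results of these data known. Named were all 10 genes, in further lists those past the threshold or otherwise the 2 with the smallest p, and the 3 most like TRMT13. The other genes flanking TRMT13 and those of lists of 5 or fewer were named beyond that rule, after their values were seen. The motifs were chosen after the sequences were seen. Some genes of the marker and neighbourhood lists are not reported here.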

Additional observations from a re-analysis of the deposited data

How the results depend on the processing

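Across all 12 alternatives, TRMT13 kept its fall and its call (log2 fold change −2.26 to −1.81, also the range when 1 library was left out), and so did HIAT1 (−1.74 to −1.28). The number of genes called was 389, and it became 1949 with no filter on low counts, 1129 with DESeq2 and 5227 with the replicate block, and ran from 495 to 767 when 1 library was left out. Of the 10 genes, 1 was called. That number became 2 with no filter (TRMT13 and MRM1) and 6 with the block, and was 1 to 2 when 1 library was left out. Leaving out a library leaves an arm of 1, assumed to vary like the other group. Of the 26 tRNA base methyltransferases 0 were called, but 2 with no filter (10.5% of all genes) and 9 with the block (40.1%).

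With the replicate block SASS6 (−0.79, edgeR adjusted p = 0.00333), LRRC39 (1.20, 0.0170), FTSJ3 (0.40, 0.0388), MRM1 (1.22, 0.000122) and RNMTL1 were called beside TRMT13, where 40.1% of all genes were called. Deviations of equal replicate numbers correlated with r = 0.639 across genes, and the library codes in the titles run on from control to knockdown within a number, but no label says what a number shares, so the block was not used for the main values.

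Signs turned when 1 library was left out for TARBP1 (−0.063 to 0.021), SLC35A3 (−0.48 to 0.33), RTCA (−0.10 to 0.35), FRRS1 (−0.031 to 0.70) and WDR6 (−0.33 to 0.21), none of them called. The cause of these changes was not tested. LRRC39 rests on 10 to 43 counts per library, and the part of depth in its spread was not tested.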
